A study of Sus scrofa with 92 samples.

Results

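Positive acute phase proteins are the plasma proteins whose output by the liver goes up after injury, and the transcripts of 8 of them were looked for in the livers of pigs that went through hemorrhagic shock and injury. The members were taken by symbol: HP, CRP, ITIH4, FGA, FGB, FGG, LBP and ORM1. Of these, 6 symbols matched 9 pig Ensembl rows out of 25322 in the count table, of which 18179 had a count in the libraries used and 12504 carried a symbol. HP and ORM1 matched no row and were not analysed here. CRP, FGA and FGB each matched 2 rows, called here CRP-A (ENSSSCG00000006403) and CRP-B (ENSSSCG00000021186), FGA-A (ENSSSCG00000008998) and FGA-B (ENSSSCG00000028901), and FGB-A (ENSSSCG00000008997) and FGB-B (ENSSSCG00000023883). The single rows were FGG (ENSSSCG00000024314), ITIH4 (ENSSSCG00000011453) and LBP (ENSSSCG00000028758). How reads were shared between the 2 rows of a gene is not given in the sources used here, so the level of each such row is uncertain.

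In the acute phase response, cytokines of the IL-6 and IL-1 families reach the hepatocyte after injury or infection and act through STAT3, C/EBP and NF-κB on the genes of secreted proteins. Positive acute phase proteins then become more abundant in plasma, while negative ones such as albumin and transthyretin become less so. CRP is a pentraxin that binds damaged cells and microbes. ITIH4 is an inter-alpha-trypsin inhibitor family member that is a major acute phase protein in the pig. FGA, FGB and FGG encode the alpha, beta and gamma chains that assemble into fibrinogen, the precursor of the clot. LBP encodes the protein that carries bacterial lipopolysaccharide to CD14 and TLR4.

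RNA was sequenced from biopsies of the liver periphery of 23 juvenile male Yorkshire-Landrace pigs, 18 fasted (FS) and 5 carbohydrate prefed (CPF). All were fasted overnight, and the CPF animals received a bolus of syrup before anesthesia. Every animal of both groups had a splenectomy, a blunt chest injury, hemorrhage, a crush injury of the liver, and limited followed by full resuscitation, all under anesthesia. Biopsies were labelled as taken at Baseline (B), or at 2 hours (FR2), 8 hours (FR8) or 20 hours (FR20) from the start of resuscitation. No uninjured animal was followed in time, so injury, surgery, anesthesia and time cannot be told apart. Of the animals, 5 died (3 FS, 2 CPF) and 18 lived.

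Of 92 libraries, 88 were used: 15, 18, 18 and 18 in FS animals and 5, 5, 4 and 5 in CPF animals at B, FR2, FR8 and FR20. The Baseline libraries of FS animals 17, 19 and 21 were left out because they had the profile of striated muscle (42395 to 48205 CPM on its markers, against at most 165 in the libraries used), and the FR8 library of CPF animal 3 because it held 4388 counts. Totals of the libraries used ran from 6877117 to 16613261 counts with a median of 12071957. The lowest count of a member was 86 (LBP), apart from the FR2 library of FS animal 11 described next. Levels are CPM, library counts on a common scale set by TMM, and are not divided by transcript length, so they are compared between libraries and not between genes.

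Some libraries stood apart or went against their labels. Each library's profile over 6822 genes that are not members was set against the mean profile of the other animals at each timepoint, and 70 of 88 libraries were most like their own timepoint. Of the other 18, 14 belonged to FS animals 10, 17, 19 and 21 and CPF animal 13. The rest were of FS animals 4, 9 and 20, which stay in all fits described below. The Baseline library of animal 4 was most like FR20, and the FR20 library of animal 20 most like FR8. In animal 9 the FR8 library was most like FR20 and the FR20 library most like FR8. In animals 10, 13, 17, 19 and 21 albumin rose 2.55-fold to 4.10-fold between successive labelled timepoints, and in no other animal by more than 1.24-fold. For example, ITIH4 in animal 10 was 11853, 8041, 4326 and 4238 CPM at B, FR2, FR8 and FR20. In animal 17 it was 14598, 1712 and 13865 CPM at FR2, FR8 and FR20. In animal 11, the FR2 and FR8 libraries had no count on 446 and 443 of the 4398 genes with a median of at least 20 CPM, against at most 1 such gene in any other library. All 443 were shared, and the 3 that were at 0 at FR2 alone were FGA-B, FGB-A and FGB-B. All labels were kept as given, and the text gives counts of members without animals 10, 11, 13, 17, 19 and 21 (the 6 animals) where calls changed. Animals 10, 13, 17, 19 and 21 were picked by the rise of albumin, a negative acute phase gene. Counts of acute phase genes without them are therefore not independent of that choice. The share of all genes called in such fits is not given here.

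**Figure D1:**
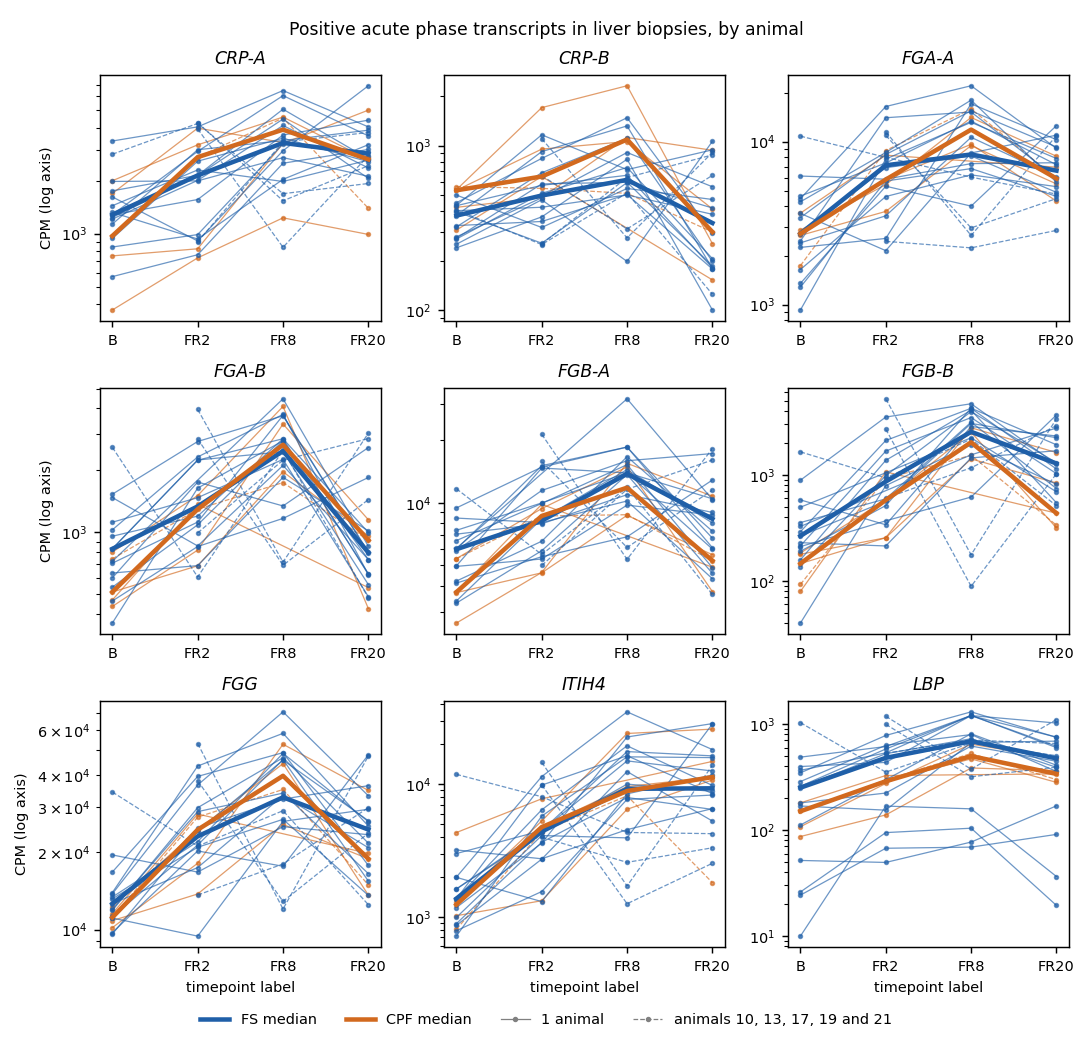
Level of each member row in every library used, in CPM on a log axis, by timepoint label. Thin lines join the libraries of an animal (blue FS, orange CPF, dashed for animals 10, 13, 17, 19 and 21), thick lines join the group medians, and the 3 rows at 0 in the FR2 library of animal 11 (FGA-B, FGB-A, FGB-B) are not drawn there. In FS animals the medians of all 9 rows were higher at FR8 than at B, and 6 of the 9 were lower at FR8 than at B in animal 10.

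The 9 rows together held a median of 2.11% of a library's counts at B in FS animals, 4.66% at FR2, 8.04% at FR8 and 6.08% at FR20. In CPF animals the medians were 1.92%, 4.58%, 9.16% and 6.22%. At FR8 the FS libraries ran from 1.96% to 15.4%, so that the lowest of them lay within the Baseline range of 1.60% to 8.55%. With animals 10, 11, 13, 17, 19 and 21 left out, the FS Baseline libraries ended at 4.05% and those at FR8 began at 4.98%, with no overlap. These animals were chosen after the data were seen, all but animal 11 by a rise of albumin, a negative acute phase gene. The overlap lay in the libraries so removed, and the separation is not independent of that choice. The 4 CPF libraries at FR8 (7.62% to 10.8%) all lay above the 5 at B (1.82% to 2.29%).

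The question of how the liver's transcripts changed after shock and resuscitation was addressed first in FS animals, at FR8 against B (FR8vB). All 9 member rows rose (edgeR quasi-likelihood test, Benjamini-Hochberg adjusted p under 0.05), against 19.9% of the 13667 genes tested. Of the 9, 8 also passed a log2 fold change of 1, against 4.44% of all genes. The median log2 fold change of the members was 1.37, and that of all genes was 0.00. Without the 6 animals named above the count was again 9 of 9, and the share of all genes in that fit is not given here.

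ITIH4 ran from 717 to 11853 CPM at B in FS animals with a median of 1374. At FR8 it ran from 1258 to 35038 CPM with a median of 9228. The highest Baseline library was that of animal 10, and without it the Baseline range ended at 3196 CPM in animal 4. The Baseline libraries of both animals were most like another timepoint. The increase was 2.56 on the log2 scale (SE 0.39, adjusted p = 1.08e-06), seen in 14 of 15 animals. Without the 6 animals it was 2.98 (SE 0.28).

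Of the fibrinogen rows, FGB-B showed the highest log2 fold change among the members at FR8vB. It ran from 39.8 to 1647 CPM at B (median 265) and from 88.6 to 4692 CPM at FR8 (median 2548), a log2 fold change of 2.86 (SE 0.52, adjusted p = 1.6e-05) with all 15 animals higher. FGB-A, the row with most of the FGB counts, went from a median of 5982 to 13800 CPM. Its range was 3295 to 11693 CPM at B and 5349 to 31647 CPM at FR8, and its log2 fold change was 1.10 (SE 0.36, adjusted p = 0.013), again with 15 of 15 higher. The beta chain rows thus rose by unequal amounts, and the ranges of both overlapped between the timepoints.

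FGA-A had a median of 2726 CPM (927 to 10797) at B and 8338 CPM (2230 to 22004) at FR8. It rose by 1.63 on the log2 scale (SE 0.26, adjusted p = 2.0e-06) with 14 of 15 animals higher. FGA-B, the other alpha chain row, went from 832 CPM (363 to 2593) to 2486 CPM (693 to 4457) and rose by 1.37 (SE 0.38, adjusted p = 0.0030), also in 14 of 15. The gamma chain transcript FGG went from 12614 CPM (9608 to 34368) to 32762 CPM (12025 to 70527) and rose by 1.28 (SE 0.21, adjusted p = 4.5e-06). Animal 10 was the animal in which FGA-A, FGA-B, FGG, ITIH4, LBP and CRP-A were lower at FR8 than at B.

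CRP-A had a median of 1280 CPM (570 to 3353) at B and 3271 CPM (836 to 6484) at FR8, a log2 fold change of 1.18 (SE 0.23, adjusted p = 5.4e-05). CRP-B changed least of the 9 rows, from 376 CPM (240 to 501) to 620 CPM (198.2 to 1474), a log2 fold change of 0.87 (SE 0.26, adjusted p = 0.0067). It was lower at FR8 in animal 9, from 252 to 198.2 CPM, and that FR8 library was most like FR20.

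LBP went from a median of 251 CPM (9.99 to 1031) at B to 688 CPM (69.0 to 1303) at FR8, and rose by 1.5 on the log2 scale (SE 0.25, adjusted p = 3.6e-06). Its Baseline levels were the most widely spread of the members, the highest FS library being 103 times the lowest. That highest library was of animal 10 and was most like FR8. In 4 FS animals (4, 6, 14 and 20) LBP was at or below 169 CPM in all 4 libraries. The other 14 FS animals ran from 318 to 1303 CPM at FR8. These animals were singled out after their values were seen. They were low against the others at FR8, yet each was higher at FR8 than at B, with 51.7 and 77.1 CPM in animal 4, 26.1 and 104 CPM in animal 6, 9.99 and 158.6 CPM in animal 14, and 24.3 and 69.0 CPM in animal 20.

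**Figure D2:**
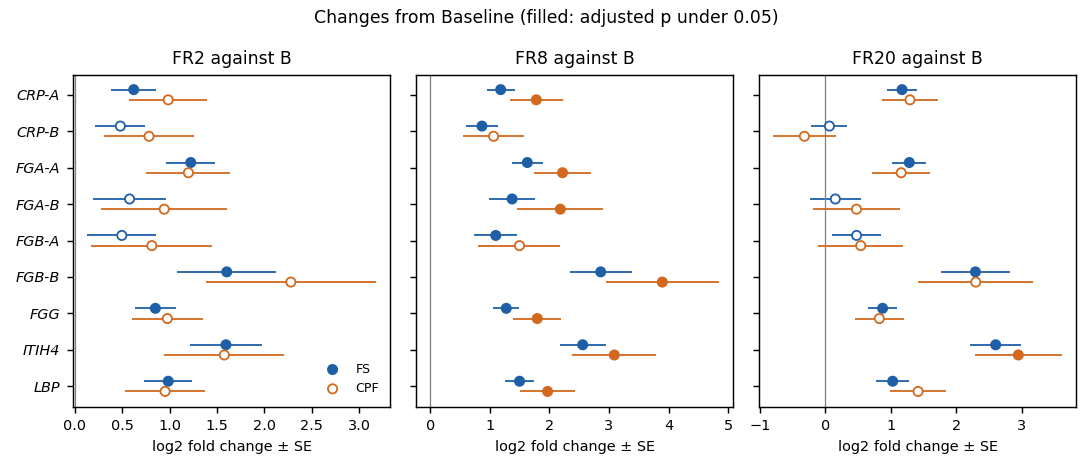
Log2 fold change from Baseline (± SE) of each member row at FR2, FR8 and FR20 in FS (blue, 15 animals with a Baseline library) and CPF (orange, 5 animals, 4 of them at FR8), filled where the adjusted p was under 0.05. At FR8 all 9 FS points and 7 CPF points are filled, and ITIH4 and FGB-B lie farthest to the right in both groups at FR8.

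At FR2vB in FS animals, 6 of 9 rows rose, against 20.3% of all genes. Of these, 3 were past a log2 fold change of 1, against 5.17%. The 3 were FGB-B (1.60, SE 0.52), ITIH4 (1.60, SE 0.38) and FGA-A (1.22, SE 0.26), and the others called were LBP (0.99), FGG (0.85) and CRP-A (0.62). Median levels at FR2 were 4397 CPM for ITIH4, 7153 CPM for FGA-A, 864 CPM for FGB-B, 23090 CPM for FGG, 480 CPM for LBP and 2139 CPM for CRP-A. CRP-B (0.48), FGA-B (0.58) and FGB-A (0.50) did not pass the test. The FR2 library of animal 11, with 0 counts on FGA-B, FGB-A and FGB-B, had 20144 counts on FGA-A and 289349 on FGG. Without animal 11 7 rows rose. Without the 6 animals FGA-B (0.85, SE 0.24) and FGB-A (0.68, SE 0.19) were among the 7 that did, whereas CRP-A (0.45, SE 0.20, adjusted p = 0.062) was not called. For both of these fits the share of all genes is not given here.

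At FR20vB in FS animals, 6 of 9 rows rose, against 17.4% of all genes, and 5 were past a log2 fold change of 1, against 4.68%. ITIH4 was 2.60 (SE 0.39), with a median of 9305 CPM (2535 to 28590). FGB-B was 2.29 (SE 0.52), FGA-A 1.28 (SE 0.26), CRP-A 1.17 (SE 0.24), LBP 1.03 (SE 0.25) and FGG 0.87 (SE 0.22). The 3 that did not pass were FGB-A at 0.48, FGA-B at 0.15 and CRP-B at 0.06. The median of CRP-B at FR20 was 339 CPM (101 to 1062), and CRP-B was lower than at B in 11 of 15 animals. Leaving out the 6 animals gave 7 rows that rose, FGB-A (0.51, SE 0.19, adjusted p = 0.029) being the added one. For that fit the share of all genes is not given here.

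The members did not all reach their highest level at the same timepoint. Among the 15 FS animals with 4 libraries, FR8 was the highest of the 4 in 13 for CRP-B, in 12 for FGA-B, FGB-A and FGB-B, in 11 for FGA-A and FGG and in 10 for LBP. For ITIH4 it was highest at FR8 in 9 animals and at FR20 in 5. CRP-A was highest at FR8 in 8 animals and at FR20 in 6. CRP-B had its lowest level at FR20 in 10 of the 15. Animals whose labels and profiles disagree are among the 15.

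From FR2 to FR8 (FR8vFR2), 3 of 9 rows rose in FS animals, against 14.5% of all genes: FGB-B by 1.26 (SE 0.48), ITIH4 by 0.96 (SE 0.35) and CRP-A by 0.56 (SE 0.22, adjusted p = 0.0499). FGB-B was past a log2 fold change of 1, against 2.52% of all genes. From FR8 to FR20 (FR20vFR8), FGA-B fell by 1.22 (SE 0.37) and CRP-B fell by 0.81 (SE 0.26) on the log2 scale, against 3.33% of all genes that fell. FGA-B alone was past a log2 fold change of -1, against 0.278%. Both steps moved with the animals that went against their labels. Without the 6 animals, 8 of 9 rows rose at FR8vFR2 (ITIH4 1.49, SE 0.26, and FGB-B 1.63, SE 0.35), and without the 5 animals alone 7 did. At FR20vFR8, 5 rows then fell (FGA-B -1.41, CRP-B -0.99, FGB-B -0.94, FGB-A -0.73 and FGG -0.55), and ITIH4 and CRP-A were not called in either fit. Calls over all genes also grew without the 6 animals, and their share is not given here. By the quasi-likelihood test at FR8vFR2, ITIH4 had p = 0.0073 and adjusted p = 0.030 in the main fit. Without the 6 animals FGA-A had p = 0.0074 and adjusted p = 0.017. At FR20vFR8 an adjusted p of 0.049 went with p = 0.0031 in the main fit (CRP-B). One of 0.048 went with p = 0.0117 without the 6 animals (FGB-B). Without animal 11 alone, 1 row was called at each step, and without CPF animal 3, 8 or 13, which share the fit, FGA-B was the 1 row called at FR20vFR8. With the 3 muscle-like Baseline libraries kept, 0 rows were called at either step.

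**Figure D3:**
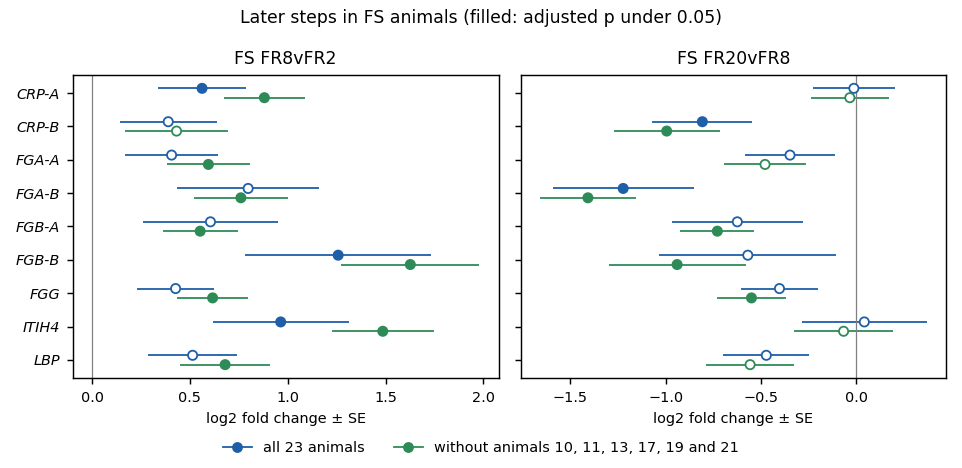
Log2 fold change (± SE) of each member row from FR2 to FR8 and from FR8 to FR20 in FS animals, with all 23 animals in the fit (blue) and without animals 10, 11, 13, 17, 19 and 21 (green), filled where the adjusted p was under 0.05. The filled points go from 3 to 8 in the first step and from 2 to 5 in the second. Calls over all genes grew too, and their share in the smaller fit is not given here.

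In CPF animals at FR8vB, 7 of 9 rows rose, against 6.31% of all genes, and all 7 were past a log2 fold change of 1, against 3.70%. ITIH4 in animals 3, 7, 8, 13 and 18 was 4320, 1293, 1021, 808 and 1240 CPM at B. In animals 7, 8, 13 and 18 it was 24090, 6467, 8171 and 9591 CPM at FR8, all above the 5 Baseline values. The log2 fold change was 3.09 (SE 0.70, adjusted p = 0.0039). FGB-B was 79.3, 178, 145, 92.3 and 183 CPM at B and 2782, 1414, 1528 and 2531 CPM at FR8, with no overlap and a log2 fold change of 3.89 (SE 0.95, adjusted p = 0.0061).

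LBP was 181, 108, 86.9, 150 and 153 CPM at B in the CPF animals and 647, 385, 528 and 469 CPM at FR8. These values did not overlap, and LBP rose by 1.97 (SE 0.46). FGG was 11538, 10172, 10832, 11152 and 12266 CPM at B and 52753, 25678, 35150 and 44324 CPM at FR8, again apart, and rose by 1.8 (SE 0.40). FGA-A rose by 2.22 (SE 0.48), FGA-B by 2.18 (SE 0.72) and CRP-A by 1.78 (SE 0.44). B and FR8 also lay apart for FGA-A, FGA-B and FGB-A, and overlapped for CRP-A and CRP-B. How large a share of all genes lay apart in this way is not given here, which also holds for ITIH4 and FGB-B above. FGB-A (1.5, SE 0.69, adjusted p = 0.14) and CRP-B (1.06, SE 0.51, adjusted p = 0.16) did not pass, although FGB-A was higher in 4 of 4 animals. Without animal 11 in the fit 8 rows were called, and without the 6 animals all 9 were. The shares of all genes called in these smaller fits are not given here. With the 3 muscle-like FS Baseline libraries kept in the shared fit, 1 row was called.

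At FR20vB the CPF animals had 1 member called, against 0.278% of all genes that rose, and against 0.249% that also passed a log2 fold change of 1. It was ITIH4, with a log2 fold change of 2.95 (SE 0.67, adjusted p = 0.022). In animals 3, 7, 8, 13 and 18 it was 14834, 25978, 10756, 1813 and 11304 CPM at FR20, and the lowest value was that of animal 13, among the animals whose libraries went against their labels. The call was lost without animal 3, 7, 8 or 18. Without the 6 animals, CRP-A (1.44, SE 0.38), FGB-B (2.39, SE 0.65) and LBP (1.52, SE 0.42) were called beside ITIH4 (3.18, SE 0.51). The shares of all genes given above are of the main fit, and that of the smaller fit is not given here. In the 4 CPF animals with 4 libraries, FR8 was the highest timepoint in all 4 for FGA-A, FGA-B, FGB-A, FGB-B, FGG and LBP, whereas ITIH4 was highest at FR20 in 3.

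The other CPF steps gave 0 members called with edgeR's quasi-likelihood test, with its likelihood ratio test and with DESeq2. At FR2vB all 9 log2 fold changes were above 0 (0.78 to 2.28), 6 rows had an unadjusted p under 0.05, against 20.0% of all genes, and 3.41% of all genes were called. At FR8vFR2 all 9 were above 0 (0.28 to 1.61), 4 had such a p, against 26.6% of all genes, and 7.21% of all genes were called. At FR20vFR8 all 9 were below 0 (-1.71 to -0.14), 4 had such a p, against 10.9% of all genes, and 0.0220% of all genes were called. Without the 6 animals, FGA-B (1.45, SE 0.49) and ITIH4 (1.74, SE 0.51) were called at FR8vFR2 and FGA-B (-1.90, SE 0.48) at FR20vFR8. The share of all genes called in that smaller fit is not given here.

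Whether the change from Baseline differed between the fed states was tested as an interaction, the CPF change minus the FS change. At FR2, FR8 and FR20, 0 of 9 rows were called with edgeR's quasi-likelihood test, its likelihood ratio test or DESeq2, and 0 had an unadjusted p under 0.05. Of all genes, 0% were called at each timepoint, and 2.90%, 3.42% and 3.81% had such a p. At FR8 the 9 differences ran from 0.19 to 1.03, with standard errors from 0.45 for FGG to 1.00 for FGB-B. The difference was 0.53 (SE 0.76) for ITIH4, 0.47 (SE 0.52) for LBP, 0.52 (SE 0.45) for FGG and 0.60 (SE 0.50) for CRP-A. At FR20 the differences ran from -0.38 to 0.39. With 5 CPF animals these intervals are wide, and a like response of the fed states was not shown.

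The fed states were also compared at each timepoint (CPF against FS). With edgeR's quasi-likelihood test, its likelihood ratio test and DESeq2, 0 of 9 rows were called at any of the 4, against 0.0342% of all genes at Baseline and 0% at the 3 later timepoints. At B 3 rows had an unadjusted p under 0.05, against 7.66% of all genes. FGB-B was lower in CPF (log2 difference -1.55, SE 0.57), with 79.3 to 183 CPM against 39.8 to 1647 CPM in FS. FGB-A was also lower (-0.57, SE 0.26), whereas CRP-B was higher (0.41, SE 0.17), with 307 to 564 CPM in CPF against 240 to 501 CPM in FS. The highest FS values of FGB-B and FGB-A at B were those of animal 10, whose Baseline library was most like FR8. Without animals 10, 13, 17, 19 and 21 in the fit 0 of 9 rows were called at B, and its differences are not given here. At FR8 such a p was seen for CRP-B (0.85, SE 0.37), against 5.17% of all genes, and at FR20 for FGB-B (-1.24, SE 0.47), against 3.25%. No row had one at FR2, against 5.58% of all genes. The groups overlapped in each of these cases, and none passed the adjustment over all genes.

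The 5 animals that died were set against those that lived, with a term for the fed state. With edgeR's quasi-likelihood test, its likelihood ratio test and DESeq2, 0 of 9 rows were called at any of the 4 timepoints, against 0% of all genes at each. An unadjusted p under 0.05 was seen for 2 rows at B, 4 at FR2, 0 at FR8 and 2 at FR20, against 8.54%, 5.52%, 2.22% and 5.22% of all genes. Animals 10, 11, 13, 17, 19 and 21, which stood apart or went against their labels, all lived. Without them 0 of 9 rows were called at any of the 4 timepoints. With all animals, the 9 log2 differences at FR2 (died minus lived) were all below 0, from -1.94 to -0.03. CRP-A was 728, 820, 908, 987 and 2298 CPM in the animals that died, and ran from 759 to 4267 CPM (median 2646) in those that lived, a difference of -1.19 (SE 0.39, adjusted p = 0.66). LBP was 67.4 to 275 CPM (median 154) against 49.5 to 1185 CPM (median 480), a difference of -1.36 (SE 0.54, adjusted p = 0.84). The highest values in animals that lived were those of animal 21 for CRP-A and animal 17 for LBP. The FR2 libraries of both animals were most like FR8.

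FGG at FR2 was 9430 to 22029 CPM (median 18132) in the animals that died and 13632 to 53095 CPM (median 26143) in those that lived, a difference of -0.73 (SE 0.29). FGB-B was 213 to 512 CPM (median 255) against 0 to 5225 CPM (median 961), a difference of -1.94 (SE 0.87), the value of 0 being that of animal 11. The highest values of FGG and FGB-B were those of animal 17. At FR20 the differences lay on the other side, with 8 of 9 above 0. The FR20 libraries of animals 13, 17, 19 and 21, all of which lived, were most like B or FR2. Without the 6 animals 0 of 9 rows were called at FR20, and the differences in that fit are not given here. FGB-B was 837 to 3679 CPM (median 1690) against 315 to 3391 CPM (median 1025), a difference of 1.05 (SE 0.40), and FGG differed by 0.57 (SE 0.28). At Baseline, the rows with such a p were FGA-B (-0.68, SE 0.32) and FGB-A (-0.59, SE 0.24). The groups overlapped in all of these, and none of the differences passed the adjustment.

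**Figure D4:**
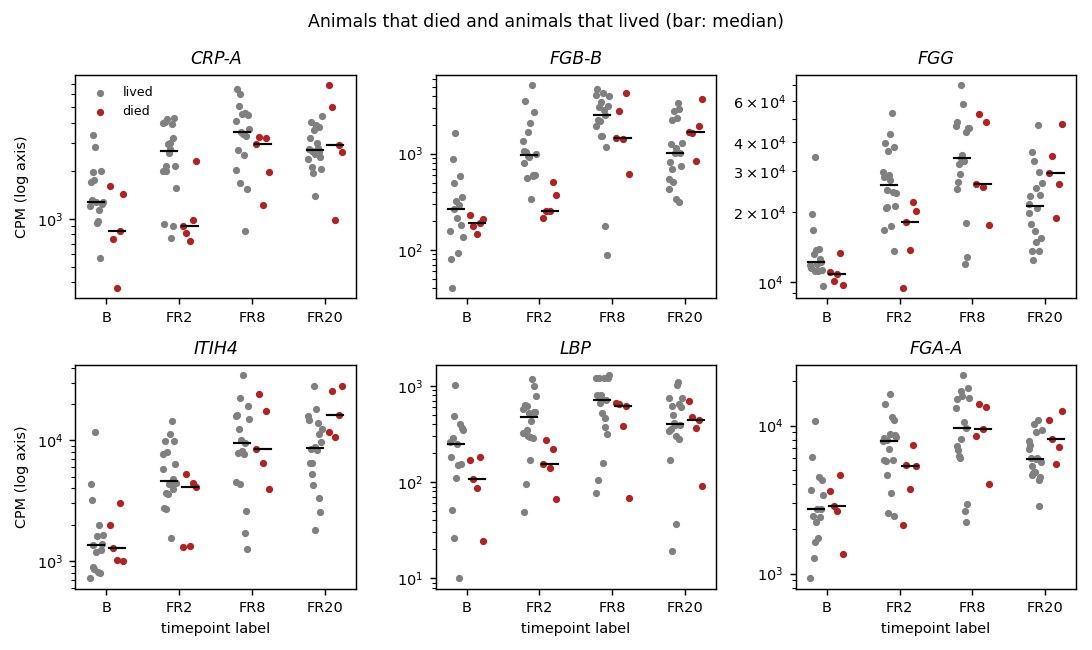
Levels of 6 member rows in CPM on a log axis in the animals that lived (grey, up to 18) and died (red, 5), by timepoint label, with the median of each group as a bar. The red points lie toward the lower part of the grey ones at FR2 and toward the upper part for FGB-B, FGG and ITIH4 at FR20, with overlap at every timepoint, and the FGB-B value of 0 at FR2 in animal 11 is not drawn. Animals 10, 11, 13, 17, 19 and 21 all lived and are drawn in grey.

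The share of a gene's counts that fell on its second row was followed over the 22 animals without animal 11. For FGB, the median share on FGB-B was 4.52% at B, 10.5% at FR2, 17% at FR8 and 14.6% at FR20 in FS animals. In CPF animals it was 3.28%, 5.81%, 14.7% and 8.13%. For CRP the share on CRP-B went from 21.4% at B to 16.9% at FR8 and 8.80% at FR20 in FS animals, and for FGA that on FGA-B from 21.4% to 21.3% and 10.1%. The 2 rows of a gene therefore did not keep a fixed ratio. Whether they are separate genes, parts of 1 gene or alleles was not tested.

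Over libraries the members moved together to unlike degrees. After the mean of each animal was removed from log2 CPM, the 36 pairs of rows had Pearson correlations from 0.25 to 0.96 over the 88 libraries, with a median of 0.64. Without animal 11 they ran from 0.27 to 0.94 over 84 libraries, with a median of 0.79. The lowest was between CRP-B and ITIH4 (0.27) and the next between CRP-A and CRP-B (0.40). Libraries of an animal and the timepoint are shared by these points, so the values are descriptions.

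The genes most like each member were found by the same measure over the 88 libraries among the genes with a symbol that are not members. The members themselves were left out of this search, and some of their pairs lie higher, such as FGA-B with FGB-A (0.96). For ITIH4 they were MLEC (0.89), LONP2 (0.89) and SLC39A1 (0.88). FGA-A had MLEC (0.91), LONP2 (0.90) and MDH1 (0.89), and LBP had MLEC (0.85), MYD88 (0.80) and RNF10 (0.80). For FGG they were EIF4G1 (0.88), HNRNPM (0.88) and SSR1 (0.88). CRP-A was most like MKKS (0.85), PRDX1 (0.84) and PSMD5 (0.82), and CRP-B most like UFD1 (0.84), PQLC1 (0.81) and SF3B6 (0.79). The 3 rows at 0 in animal 11 had lower values, with SEC13 (0.62), NNMT (0.60) and TLR2 (0.59) for FGA-B. FGB-A had PFKM (0.54), TIMM8B (0.54) and NNMT (0.53), and FGB-B had NNMT (0.72), PSMD5 (0.70) and RAB27B (0.70).

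The rest of the acute phase pathway was described at FR8vB in FS animals, where 19.9% of all genes rose and 19.5% fell. Of 8 ligands listed, 3 had a row and 2 were tested, OSM and IL1A, neither of which was called. IL6 had a row but was not tested, and LIF, IL11, IL1B, TNF and IL1RN matched no row. Changes of these untested ligands are therefore not known here. OSM, a cytokine of the IL-6 family, was at 1.28 (SE 0.69) and IL1A at -0.98 (SE 0.74), for a list median of 0.15. OSM was called without the 6 animals (2.03, SE 0.81, adjusted p = 0.030). OSM had risen at FR2vB by 2.81 (SE 0.66), from a median of 0.10 to 0.54 CPM.

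Among the 6 receptors, 2 rose and 2 fell at FR8vB, with a list median of 0.31, whereas with library totals as the scaling 4 rose and 1 fell, with a median of 0.57. OSMR, the receptor subunit for oncostatin M, rose by 1.77 (SE 0.27), from a median of 23.9 CPM at B to 130 at FR2, 125 at FR8 and 55.4 at FR20. TNFRSF1A, a receptor for TNF, rose by 0.62 (SE 0.12). IL6R, which binds IL-6, fell by 0.60 (SE 0.21) and LIFR fell by 0.59 (SE 0.11) on the log2 scale. At FR2vB, where 20.3% of all genes rose and 21.1% fell, 4 of the 6 rose and 0 fell: OSMR, TNFRSF1A, the shared signal subunit IL6ST (0.75, SE 0.14) and the IL-1 receptor IL1R1 (1.18, SE 0.22).

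Of the signal transducers and transcription factors, 9 of 11 listed were tested, and CEBPB and CEBPD matched no row. Of the 9, 3 rose and 0 fell at FR8vB, with a list median of 0.22. CEBPA rose by 1.48 (SE 0.25), STAT3 by 1.23 (SE 0.22) and the glucocorticoid receptor NR3C1 by 0.38 (SE 0.15), the last at -0.03 with the 3 muscle-like Baseline libraries kept. With library totals 5 rose and 0 fell, and without the 6 animals 4 rose and 2 fell (HNF4A and NFKB1). At FR2vB 6 rose and 1 fell. JAK1 (1.42, SE 0.25) and HNF4A (0.93, SE 0.20) rose at FR2vB and then fell at FR8vFR2, JAK1 by 1.05 and HNF4A by 1.26 on the log2 scale. Of the inhibitors, 3 of the 4 tested fell and 0 rose at FR8vB, with a list median of -0.90. With library totals as the scaling 2 fell and 1 rose. SOCS3 and ZC3H12A of that list matched no row and were not tested. TNFAIP3 fell by 1.00 (SE 0.21), NFKBIA by 0.95 (SE 0.18) and SOCS1, an inhibitor of JAK signalling, by 0.85 (SE 0.35).

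Most of the negative acute phase genes fell. Of 14 listed, 13 were tested, 12 fell and 0 rose at FR8vB, with a list median of -1.03. SERPINA6, the cortisol carrier, fell by 3.06 on the log2 scale (SE 0.48) from a median of 475 to 31.8 CPM. TTR, which carries thyroid hormone, fell by 1.85 (SE 0.30) and albumin (ALB) by 1.43 (SE 0.25). In CPM, the list's highest median at B was that of ALB, 141496 against 49875 at FR8, and its lowest was that of IGF1, 6.51 against 2.59. APOA1 did not pass the test (-0.61, SE 0.36) and had 0 counts in the FR2 and FR8 libraries of animal 11. All 13 fell without the 6 animals, APOA1 by 0.58 (SE 0.10). Of the 6, 5 were picked by a rise of ALB, a gene of this list. Counts of the list without them are not independent of that choice. At FR20vB 12 fell and 0 rose (ALB by 2.22, SE 0.26), against 16.4% of all genes that fell. In CPF animals at FR8vB 5 fell and 0 rose, against 6.99% of all genes that fell, and without the 6 animals 11 fell.

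Other positive acute phase genes were called in both directions. Of 20 listed, 12 were tested, and 3 rose and 4 fell at FR8vB, with a list median of -0.44. SAA1 to SAA4, SERPINA1, SERPINA3, HAMP and FGL1 matched no row and were not analysed here. The difference between this list and the members was not tested. Those that rose were LCN2, the siderophore binding lipocalin (2.25, SE 0.46, from a median of 1.67 to 10.3 CPM), the metalloproteinase inhibitor TIMP1 (1.71, SE 0.52) and the copper carrier CP (0.36, SE 0.14). Those that fell were ITIH3, a relative of ITIH4 (-1.02, SE 0.15), the lectin MBL2 (-2.72, SE 0.53), complement factor CFB (-0.49, SE 0.12) and the C1 inhibitor SERPING1 (-0.39, SE 0.09). Leaving out the 6 animals gave 3 that rose and 7 that fell, HPX, C4BPA and VNN1 being the added ones. HPX, C4BPA and TIMP1 had 0 counts in the FR2 and FR8 libraries of animal 11. At FR20vB the list median was -0.17, and with library totals as the scaling it was 0.23. In CPF animals at FR8vB 2 rose and 3 fell (5 without the 6 animals), and the list median of -0.26 became 0.05 with library totals.

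Of the partners of the members, 8 of 12 listed were tested, and 2 rose and 4 fell at FR8vB, with a list median of -0.43. F13A1, the subunit of the factor that links fibrin, rose by 1.43 (SE 0.48) from a median of 0.73 to 1.75 CPM, and TLR4 rose by 0.61 (SE 0.16). CD14, which receives lipopolysaccharide from LBP, fell by 0.54 (SE 0.15). F2, the gene of prothrombin, fell by 0.46 (SE 0.10), PLG, the gene of plasminogen, by 0.39 (SE 0.12; 0.0048 with the muscle-like libraries kept), and AMBP, whose bikunin is joined to inter-alpha-trypsin inhibitor chains, by 0.73 (SE 0.13).

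**Figure D5:**
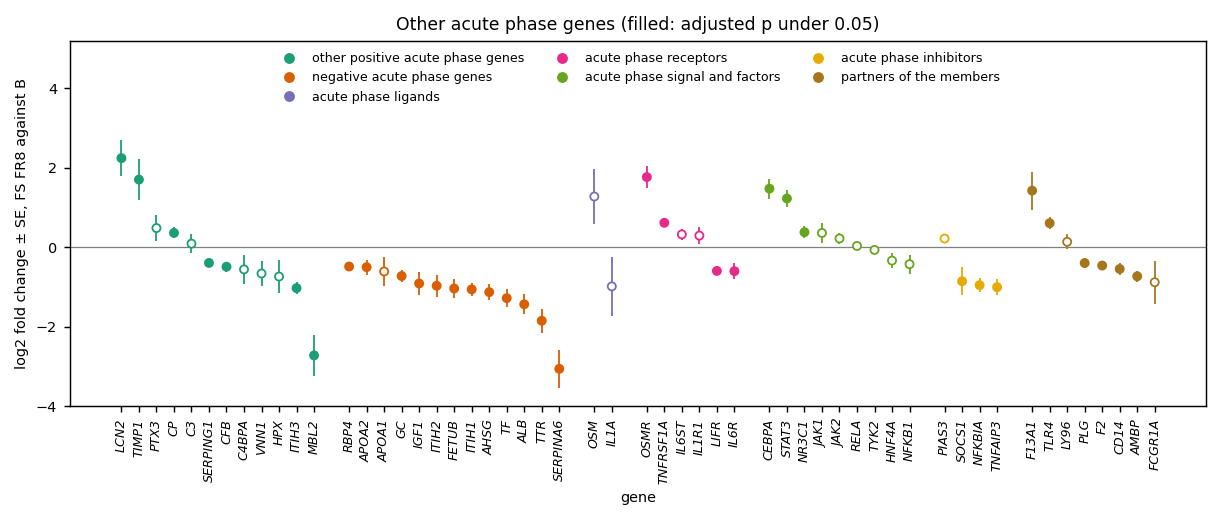
Log2 fold change (± SE) of the tested genes of the 7 acute phase lists at FR8 against Baseline in FS animals, ordered within each list and filled where the adjusted p was under 0.05. Of the 13 negative acute phase genes 12 are filled and below 0, whereas the other positive acute phase genes lie on both sides, from 2.25 (LCN2) to -2.72 (MBL2).

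Markers of the cells in a liver biopsy were read beside the members. The summed level of 9 hepatocyte markers had FS medians of 25578, 18552, 15060 and 13004 CPM at B, FR2, FR8 and FR20, and CPF medians of 22930, 19021, 10338 and 9837 CPM. At FR8vB 3 of the 9 fell (TAT, TDO2 and CYP2E1) and 0 rose, against 19.5% of all genes that fell and 19.9% that rose. APOC3 and F9 of the 9 had 0 counts in 2 libraries each. In bulk tissue, fewer cells of a type and less RNA per cell cannot be told apart. Of 4 neutrophil markers tested, 3 rose at FR8vB (S100A8 2.57, S100A9 2.37 and S100A12 2.55), whereas MPO was at 1.01 and did not pass, and CSF3R and ELANE had no tested row. Their sum had FS medians of 1.03, 15, 7.27 and 5.47 CPM, with 0 to 13.8 CPM at B and 0.46 to 30.5 CPM at FR8.

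Of 5 macrophage markers 4 fell at FR8vB, where 19.5% of all genes fell. Their sum went from a median of 433 CPM (326 to 664) at B to 317 CPM (242 to 568) at FR8. All 3 erythroid markers fell, with a sum of 256 CPM (99.6 to 1119) at B and 121 CPM (0.54 to 2314) at FR8. Of these, HBB and ALAS2 had 0 counts in 2 libraries each. The FR2 and FR8 libraries of animal 11, which lacked counts on many genes, are among the libraries summed. Of 4 stellate cell markers 2 fell (719 to 381 CPM). Of 5 T and NK cell markers 1 fell (28.3 to 27.2 CPM), which is near the share of all genes. None of 3 endothelial (131.99 to 139 CPM) and 2 bile duct (42.7 to 48.9 CPM) markers was called by the quasi-likelihood test. The part of these cells in the changes of the members was not tested.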

How the data were processed

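The authors sequenced poly-A RNA as single reads, demultiplexed them with CASAVA 1.8.2, aligned them to Sscrofa10.2 with TopHat 1.5.0, sorted them with SAMtools and counted reads per pig Ensembl gene with HTSeq (versions per the submitters' processing notes; mode and strand setting not given in the sources used here). The deposited table holds these counts, raw and with replicates not pooled. The library kit does not mark strand, and how reads over overlapping genes were counted depends on the mode, which is not given. The smallest difference between any pair of the 88 libraries used was 27.0 times the sampling noise (chi-square per degree of freedom), so none was taken as a duplicate. No coordinates are given, because the annotation at hand is of another build.

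Groups came from the labels for fed status, timepoint and survival. Of 9 member rows, 3 took their symbol from a gene name table and 6 from the study's tables. Changes with time and the interaction were fitted on 88 libraries with a term for each animal, since libraries of an animal deviated together (median correlation 0.21, 94 of 126 pairs over 0.1, against -0.02 and 543 of 2391 between animals). CPF against FS and died against lived were fitted on the libraries of a timepoint. Genes with a summed CPM of at least 10 were tested with edgeR 4.0.16 (TMM, quasi-likelihood F test, 2-sided) in R 4.3.3 with limma 3.58.1, and adjusted over all genes (Benjamini-Hochberg). A call is an adjusted p under 0.05, and counts with a log2 fold change of 1 are given beside it. Tests were run on simulated data first. Figures used Python 3.11.15, numpy 2.4.6, pandas 2.3.3 and matplotlib 3.10.9.

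The members and lists were chosen with earlier results of these data known. Named are every member, the list genes with the smallest adjusted p in a direction or the highest and lowest level, and the 3 most alike genes. The other list genes given were named after their values were seen, and 2 list genes are not reported here. Alternatives were RLE factors and library totals, no filter, DESeq2 1.42.0, the likelihood ratio test, the fold rule, the 3 muscle-like libraries kept, no animal terms, each CPF or died animal left out, FS alone, and a term for the last 2 digits of the animal names. Leaving out animals 10, 13, 17, 19 and 21, animal 11, or all 6 was chosen after seeing the data. The first 5 were picked by a rise of albumin past 2-fold between successive timepoints, and animal 11 by its genes without counts. No sequencing batch is given in the sources used here.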

Additional observations from a re-analysis of the deposited data

Results flagged for a closer look

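The 9 rows at 4 timepoints in CPF animals gave 36 groups of 4 or 5 libraries that were tested for a value far from the others. Such a value was found in 2, and chance gives about 1 in 20 such groups. ITIH4 in CPF animal 3 was 4320 CPM at Baseline, against 808 to 1293 CPM in the other 4 CPF animals. LBP in CPF animal 8, which died, was 139 CPM at FR2, against 275 to 327 CPM in the other 4.

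The FR8 library of CPF animal 3, left out for its 4388 counts, carried 105 counts on ITIH4. That is 23929 CPM on its own total, above the highest of the CPF FR8 libraries used on the same scale (22115 CPM), and FGG there was 44211 CPM (194 counts), within their range of 34709 to 48724 CPM. FGB-B had 0 counts and LBP 1. Whether the library differs from the others beyond its depth was not tested.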

How the results depend on the processing

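Of 2808 member values under the alternatives, 111 changed sign, of which 0 were past the threshold in either fit. Of 1035 alternative values of the 69 called changes followed, 949 kept call and direction, 84 lost the call and 2 turned direction. Both were at FS FR8vB with the 3 muscle-like Baseline libraries kept, NR3C1 at -0.0304 and PLG at 0.0048. Of 333 counts of members called, 298 stayed within 1.5 times.

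The others moved from main counts of 6 at FS FR2vB, 3 at FS FR8vFR2, 2 at FS FR20vFR8, 7 at CPF FR8vB, 1 at CPF FR20vB and 0 at the other CPF steps. With the fold rule, FS FR2vB had 3, FS FR8vFR2 1 and FS FR20vFR8 1. With the muscle-like libraries kept, CPF FR8vB had 1, and FS FR8vFR2, FS FR20vFR8 and CPF FR20vB had 0. With no filter, FS FR8vFR2 and FS FR20vFR8 had 1 each. FS FR20vFR8 had 1 with RLE factors and 1 with library totals. CPF FR20vB had 4 with library totals, 2 with the likelihood ratio test and 3 with DESeq2. Without animals 10, 13, 17, 19 and 21, FS FR8vFR2 had 7, FS FR20vFR8 4, CPF FR20vB 3 and CPF FR8vFR2 1. Without animal 11, FS FR8vFR2 and FS FR20vFR8 had 1 each. Without all 6, FS FR8vFR2 had 8, FS FR20vFR8 5, CPF FR20vB 4, CPF FR8vFR2 2 and CPF FR20vFR8 1. Leaving out each CPF animal gave 1 to 2 for FS FR20vFR8 (1 without animal 3, 8 or 13) and 0 to 1 for CPF FR20vB (0 without animal 3, 7, 8 or 18). What moved these counts was not tested.

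With no replicate block (no animal terms), FS FR8vFR2 had 1, FS FR20vFR8 1 and CPF FR20vB 0, while FS FR8vB had 9 as in the paired fit.

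With library totals as the scaling the median of all genes was 0.15 at FS FR2vB, 0.25 at FS FR8vB, 0.45 at FS FR20vB, 0.32 at CPF FR8vB, 0.42 at CPF FR20vB, 0.18 at FS FR20vFR8 and 0.30 at CPF FR8vFR2 on the log2 scale. The share of called genes that rose went from 49.1% to 71.1%, 50.5% to 75.9%, 51.5% to 89.3%, 47.4% to 73.6%, 31.1% to 87.3%, 47.9% to 91.3% and 56.1% to 80.9%, in that order. Where at most 3 genes were called the median was 0.10 at CPF FR20vFR8, -0.18 for the interaction at FR2, -0.14 and 0.12 for CPF against FS at FR2 and FR8, and 0.17 for died against lived at FR8. Depth did not limit the members, whose counts were at least 86 outside 1 library.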
